A study of Mus musculus with 9 samples.

Results

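The regions described are the PLAGL1 peaks that fall in repeat elements of the mouse genome. They were taken from the peak list of HA-tagged PLAGL1 against IgG by a single criterion, that the detailed annotation of the peak gives a repeat name, class and family. This holds for 377 of 3463 PLAGL1 peaks, and the remaining 3086 peaks are called here the peaks outside repeats. The cells were stem and progenitor cells of the periosteum, the membrane that covers bone, from the mandibular angle of mice aged 8 weeks. All groups were kept for 3 days in a medium that induces osteogenesis, made with dexamethasone, beta-glycerophosphate (5 mM) and ascorbic acid (50 µg/ml). The assay was CUT&Tag, in which an antibody directs a transposase to its target and the DNA released around it is sequenced. PLAGL1 with an HA tag was delivered by lentivirus to Plagl1fl/fl cells and profiled with an anti-HA antibody (1 library), and the same kind of infected cells with rabbit IgG gave its control (1 library). H3K4me3 was profiled in Plagl1fl/fl cells whose treatment label names osteogenic induction and no virus (1 library). KLF4 with a FLAG tag, also from lentivirus, was profiled in Ctsk-iCre;Plagl1fl/fl cells, where the Cre acts in cells that express Ctsk (3 libraries), and in Plagl1fl/fl control cells (3 libraries). Each of these 6 libraries has a different vector name in its treatment label, Klf4 up to Klf9, although every title reads KLF4; they are treated here as KLF4 libraries.

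The PLAGL1 and H3K4me3 lists rest on single libraries without replicates, so differences between them are described with 95% Wilson intervals that cover counting error only, and no test was made. The depth of each library is unknown. As a check of the labelled cell type, H3K4me3 peaks near the transcription start site (TSS, window of 3 kb) were counted for marker genes, and were found at 7 of 7 periosteal and skeletal progenitor markers (Prrx1, Pdgfra, Pdgfrb, Postn, Ctsk, Thy1, Itgav) and at 4 of 6 osteoblast markers, with Bglap and Ibsp unmarked. The same held for 5 of 7 macrophage and osteoclast markers, 1 of 5 endothelial markers and 0 of 5 skeletal muscle markers. In the longer gene lists used below, 19 of 20 periosteal and skeletal progenitor genes had such a peak, with Lepr unmarked. Of the 15 osteoblast genes 10 had one, with Bglap, Ibsp, Dmp1, Phex and Sost unmarked. Among all 21900 protein-coding genes, 11229 had such a peak. Each peak counts for the gene that its annotation names. Whether any of these marker lists differs from other genes was not tested.

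Repeat elements make up a large part of mammalian genomes. Long terminal repeats (LTRs) are the ends of endogenous retroviruses, and they contain the promoter and enhancer sequences of the provirus. Many remain in the genome as solitary LTRs after recombination has removed the viral genes. LINEs are transposons that copy themselves through RNA, and SINEs are short elements that use the LINE machinery. Simple repeats are tandem runs of a short unit, and satellites are longer tandem arrays, found above all around centromeres. Most LTR elements are kept silent by DNA methylation and by H3K9 methylation, which the SETDB1 enzyme deposits where TRIM28 and KRAB zinc-finger proteins have bound. H3K4me3 marks the start sites of active and poised promoters. PLAGL1 is the product of an imprinted gene and binds GC-rich DNA through its zinc fingers, and KLF4 is a zinc-finger factor of the Krüppel-like family.

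A single LTR type supplied a large share of these peaks. RLTR17B_Mm, an LTR of the ERVK family of endogenous retroviruses, was named at 97 of the 377 repeat peaks (25.7%, interval 21.6% to 30.4%). The other 280 peaks were spread over 152 element names. Of all 153 names, 117 had a single peak, and the names with at least 5 peaks numbered 14. After RLTR17B_Mm these were the simple repeats (GT)n with 14 peaks, (TG)n with 12, (AC)n with 8 and (CA)n with 8, the satellite IMPB_01 with 14, and the SINEs B4A with 11, B3 with 8, MIR3 with 6, B3A with 5 and ID_B1 with 5. The LTRs RMER12C with 6 and MTD with 5 and the Retroposon RMER1B with 5 completed them. No other LTR name came near the count of RLTR17B_Mm. How many copies of each repeat the genome holds was not analysed here, so these counts are not set against the abundance of the elements.

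By class, LTRs held 155 of the 377 peaks (41.1%, 36.3% to 46.1%), simple repeats 79 (21.0%), SINEs 70 (18.6%), LINEs 27 (7.16%), satellites 18 (4.77%), DNA transposons 14 (3.71%), the Retroposon class 9 (2.39%) and low complexity tracts 5 (1.33%). To compare this makeup with another mark, the 611 H3K4me3 peaks with a repeat name were weighted to the same distribution over 6 bins of distance to the TSS. LTRs then held 38.1% of the H3K4me3 repeat peaks, inside the interval of the PLAGL1 share. Within the LTR class, RLTR17B_Mm differed widely between the lists, with 97 of the 377 PLAGL1 repeat peaks and 7 of the 611 H3K4me3 repeat peaks (1.15%, 0.556% to 2.35%, and 1.53% when weighted). RLTR17B_Mm had the most PLAGL1 repeat peaks of any element, so leaving it out lowers the PLAGL1 share of LTRs by construction. The shares without it are therefore given as a description, and no conclusion on the other LTRs is drawn from them. With it left out of both lists, LTRs were 20.7% of the PLAGL1 repeat peaks (58 peaks, 16.4% to 25.8%) and 36.7% of the weighted H3K4me3 repeat peaks.

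The other classes differed by varying amounts. Simple repeats were 21.0% (17.1% to 25.3%) of the PLAGL1 repeat peaks and 15.4% of the weighted H3K4me3 repeat peaks, and satellites were 4.77% (3.04% to 7.42%) and 2.61%. The Retroposon class was 2.39% (1.26% to 4.47%) of the PLAGL1 repeat peaks, with 9 peaks, and 0.227% of the weighted H3K4me3 repeat peaks, with 1 peak. SINEs were 18.6% (15.0% to 22.8%) for PLAGL1 and 20.8% for H3K4me3, so the H3K4me3 value lay inside the PLAGL1 interval. The H3K4me3 value was above the PLAGL1 interval for LINEs, with 7.16% (4.97% to 10.2%) for PLAGL1 and 10.4% for H3K4me3, and for DNA transposons, with 3.71% (2.22% to 6.14%) and 6.47%. Low complexity tracts were 1.33% (0.568% to 3.07%) for PLAGL1 and 2.71% for H3K4me3. Without weighting, the H3K4me3 shares of simple repeats (20.9%), LINEs (7.53%) and DNA transposons (4.75%) lay inside the PLAGL1 intervals. Those of LTRs (29.6%), SINEs (28.6%), satellites (1.80%), the Retroposon class (0.164%) and low complexity tracts (4.26%) lay outside. The weighted H3K4me3 shares have counting error too, for which no interval is given here. The peaks of the rRNA, scRNA, snRNA and tRNA classes in the H3K4me3 list, 14 in all, had no counterpart among the PLAGL1 peaks. The bar plot of repeat classes sets the lists side by side.

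**Figure D1:**
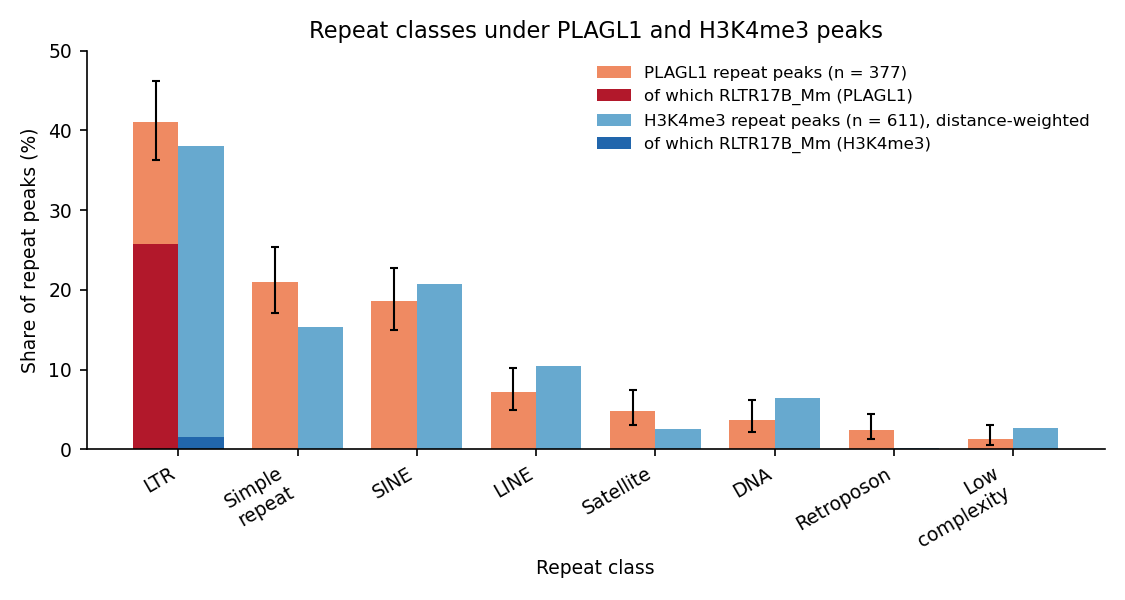
Share of repeat peaks (%) by repeat class for PLAGL1 (left bar of each pair, with 95% Wilson intervals) and for H3K4me3 weighted to the PLAGL1 distances to the TSS (right bar, no interval drawn); the darker part of the LTR bars is RLTR17B_Mm. The LTR bars have similar heights, 41.1% for PLAGL1 and 38.1% for H3K4me3, but RLTR17B_Mm makes up 25.7% of the repeat peaks for PLAGL1 and 1.53% for H3K4me3.

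The repeat units of the simple repeats show what kind of tandem sequence was found. They are the only repeat sequences shown, since the peak files give element names for the other classes. Each unit is written 5′ to 3′ as the first in alphabetical order of its rotations and of those of its complementary strand, so that (GT)n, (TG)n, (CA)n and (AC)n are all the same unit. The units found at 2 or more PLAGL1 peaks were:

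dinucleotide AC, 44 peaks: AC

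pentanucleotide, 5 peaks: ACAGC

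dinucleotide AG, 4 peaks: AG

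tetranucleotide, 2 peaks: ACAT

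pentanucleotide, 2 peaks: AGCCC

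Another 22 units were found at 1 peak each, the longest being ACACTACAGT and ACTGCTGCCC. The AC unit thus made up 44 of 79 simple repeat peaks (55.7%), against 26 of the 128 simple repeat peaks of H3K4me3 (20.3%, interval 14.3% to 28.1%). Units of 3 or more bases were found at 29 PLAGL1 peaks (36.7%) and at 80 H3K4me3 peaks (62.5%). The unit also went with KLF4. A KLF4 site overlapped 11 of the 44 PLAGL1 peaks at AC repeats (25%, 14.6% to 39.4%) and 21 of the 29 at units of 3 or more bases (72.4%, 54.3% to 85.3%), among them 5 of 5 peaks at ACAGC and 2 of 2 at AGCCC. Of the 5 ACAGC peaks, 2 were neighbours on chr16 over the same KLF4 site. The units were grouped after their values were seen.

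Repeat peaks were weaker than other PLAGL1 peaks. The score, the authors' own value for each peak, ranged from 20 to 204 with a median of 30 in the repeat peaks, and from 20 to 402 with a median of 40 in the peaks outside repeats. The median of the peaks outside repeats was also 40 when they were weighted to the distances of the repeat peaks. The share of all PLAGL1 peaks that lay in repeats declined over the bands of the score. It was 15.4% at scores of 20 to 29 (122 of 790 peaks), 12.7% at 30 to 39 (116 of 916), 10.3% at 40 to 59 (104 of 1008), 5.53% at 60 to 99 (32 of 579) and 1.76% at 100 and over (3 of 170).

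RLTR17B_Mm had a median score of 39 (order-statistic 95% interval 30 to 40, range 20 to 84) and the other repeat peaks had a median of 30 (interval 30 to 30, range 20 to 204), so that the intervals meet at 30. Medians were 30 for SINEs, LINEs, satellites, DNA transposons, the Retroposon class and the other LTRs, and 33 for simple repeats, and the ranges of all these groups overlapped that of RLTR17B_Mm. The low complexity tracts had a median of 40 over 5 peaks. Among the elements with at least 5 peaks, MIR3 was highest with a median of 41.5 over 6 peaks, and ID_B1 was lowest with 24 over 5 peaks, but the scores of both lay within the range of RLTR17B_Mm. Peaks in repeats were also narrower, with a median width of 155 bp against 194 bp outside repeats. The intronic or intergenic peaks outside repeats with no CpG name had a median of 186 bp.

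**Figure D2:**
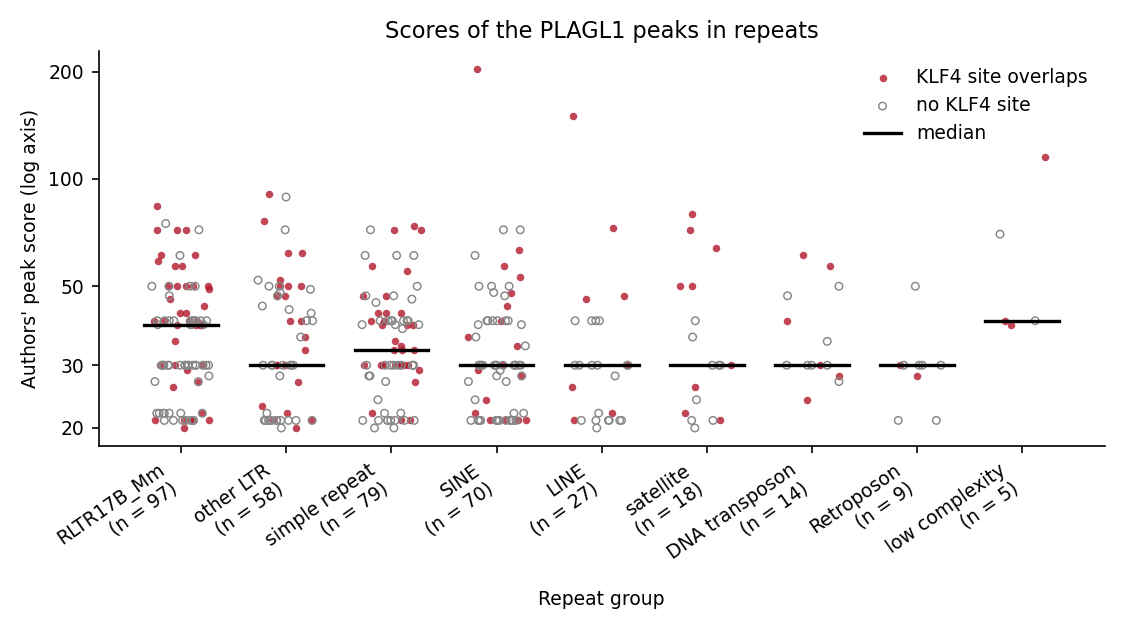
The authors' score (log axis) of each of the 377 PLAGL1 repeat peaks, by repeat group; filled points overlap a KLF4 site, open points do not, and bars are medians. The median is 39 for RLTR17B_Mm and 30 for the other LTRs, and the 3 peaks with a score of 100 or more are a SINE, a LINE and a low complexity tract.

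Each repeat peak carries a single element name, and how much of the peak the element covers was not analysed here. The 10 highest-scored repeat peaks came from 9 different elements. The strongest, with a score of 204 and rank 11 of all PLAGL1 peaks, was an intergenic peak of 2585 bp at chr8:127393070-127395654 (mm39) in AmnSINE2, an old SINE, 73637 bp from the TSS of Irf2bp2, which encodes a corepressor partner of IRF2. It was followed by an intronic peak in X17_LINE (score 150, chr6:135226987-135227349) 2286 bp from the TSS of Gsg1, and by a G-rich low complexity tract (115, chr8:106073317-106073820) 1034 bp from that of Fhod1, a formin that organises actin filaments. LTRs came next. An internal ORR1B1 fragment (91, chr12:85524650-85525465) lay 4393 bp from the TSS of Fos, which encodes a subunit of AP-1, and an MTC element (89, chr11:20811397-20811543) lay 30362 bp from Lgalsl, a galectin-like gene.

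The remaining members of the leading 10 were the strongest RLTR17B_Mm peak (84, chr13:112192405-112192657, near Gm41062), an IMPB_01 satellite near the end of chrY (80, chrY:90823999-90824241, near G530011O06Rik) and an LTR86B2 element (76, chr14:77722437-77722787, near Gm6994). They were followed by another RLTR17B_Mm peak (75, chr6:86268656-86268928) near Fam136a and a (GT)n repeat (74, chr15:79920199-79920305) 21074 bp from the TSS of Pdgfb, which encodes a PDGF ligand. Of these 10 peaks, 8 overlapped a KLF4 site and 1, at Fhod1, overlapped an H3K4me3 peak. Among the smaller classes the highest scores were 61 for DNA transposons, at hAT-1_Mam near Tas2r143, a bitter taste receptor gene, and 50 for the Retroposon class, at RMER1C near Gclc, which encodes a subunit of the enzyme that limits glutathione synthesis.

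Repeat peaks lay far from transcription starts. Their median distance to the nearest TSS was 22909 bp, against 2504 bp for the peaks outside repeats, and 34 of the 377 were within 3 kb of a TSS against 1584 of the 3086. The annotation gives a repeat name only where the basic class is intron or intergenic, so peaks of other classes, such as promoters, could not be members. The intronic or intergenic peaks outside repeats with no CpG name had a median distance of 17903 bp, and 276 of these 1634 were within 3 kb. Of the repeat peaks 173 were intronic and 204 intergenic. Of the 2170 intronic or intergenic PLAGL1 peaks, 17.4% (15.8% to 19.0%) were in repeats, and of the 8933 such H3K4me3 peaks 6.84% (6.33% to 7.38%). The share of PLAGL1 peaks in repeats was higher in each farther bin of distance. It was 0.526% under 1 kb, 9.41% at 1 to 3 kb, 13.2% at 3 to 10 kb, 18.8% at 10 to 50 kb, 21.8% at 50 to 100 kb and 26.4% at 100 kb and over. For H3K4me3 it was 1.74%, 6.87%, 9.50%, 11.6%, 9.09% and 8.47% in the same bins.

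**Figure D3:**
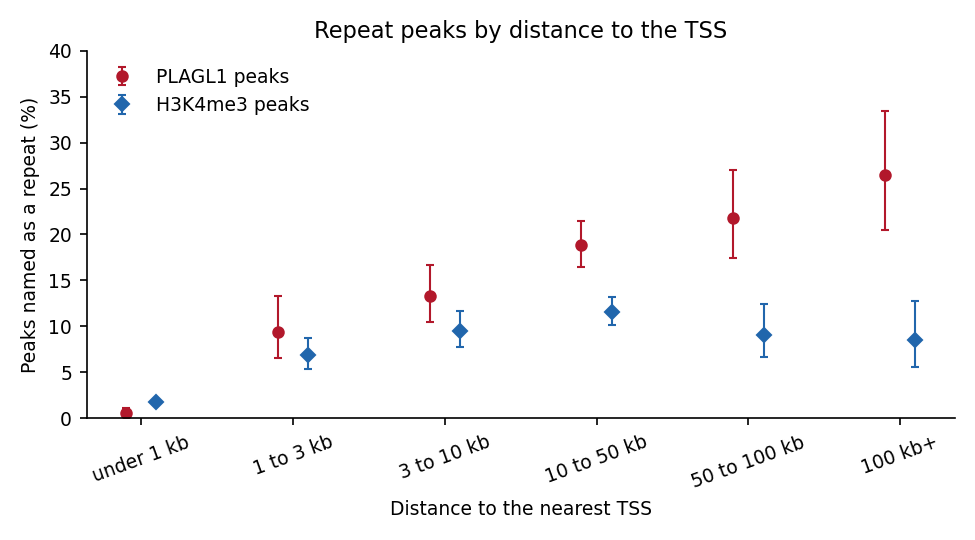
Share of PLAGL1 peaks (circles) and of H3K4me3 peaks (diamonds) named as a repeat, in percent, by distance to the nearest TSS, with 95% Wilson intervals. Only intronic or intergenic peaks can carry a repeat name, while each share is of all peaks in its bin. At 100 kb and over the share is 26.4% for PLAGL1 and 8.47% for H3K4me3, and the intervals do not meet in the bins from 10 kb outwards, where PLAGL1 is higher, nor under 1 kb, where PLAGL1 (0.526%) is lower than H3K4me3 (1.74%).

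RLTR17B_Mm peaks were scattered over the genome. They lay on all 19 autosomes, from 2 on chr12 and chr19 to 8 on chr2, chr7, chr8 and chr13, and none was on chrX or chrY. The closest RLTR17B_Mm peaks were 257204 bp apart. Of the 97, 6 had any other PLAGL1 peak within 5 kb (6.19%), as did 54 of all 377 repeat peaks (14.3%). Outside repeats it was 767 of the 3086 peaks (24.9%), a share not weighted by distance to the TSS. Of the 377 repeat peaks none was on chrX, where 21 of the 3086 peaks outside repeats lay. Of the 1634 intronic or intergenic peaks outside repeats with no CpG name, 4 lay there. These shares are small too, so the absence is not read as a trait of repeat peaks. The gene with the most repeat peaks, Sfi1 on chr11, had 4, in B3, RMER6B, B1_Mur1 and RCHARR1 elements between chr11:3135507 and chr11:3149296. The KLF4 site at the B1_Mur1 peak had 9.30 mean log2 CPM in the authors' values, and the site at B3 and RMER6B had 6.46. The median of all KLF4 sites was 5.08, and the RCHARR1 peak had no KLF4 site. The part that reads matching several places play at this cluster was not tested.

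Many of the genes nearest to RLTR17B_Mm were not protein-coding. For 36 of the 97 peaks (37.1%, 28.2% to 47.0%) the nearest annotated gene was a non-coding RNA or a pseudogene. This was so for 56 of the 280 other repeat peaks (20.0%, 15.7% to 25.1%) and for 20.8% of the peaks outside repeats when weighted to the distances of RLTR17B_Mm. SINE peaks, which lay closer to a TSS (median 11880 bp), had 7 of 70 (10.0%, 4.93% to 19.2%).

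The genes nearest to RLTR17B_Mm were of many kinds, and none belonged to the osteoblast or periosteal lists described next. The following examples were picked after the values were seen, and their distances do not tell which gene, if any, a peak acts on. The closest of all 97 to a TSS was 1281 bp from Siglec15, which encodes a lectin needed for osteoclast formation (score 27, chr18:78101883-78101991). Peaks with a score of 50 lay 37462 bp from Eln, the elastin gene, and 21008 bp from Prickle1, a planar cell polarity gene. Others lay 45578 bp from the matrix metalloproteinase gene Mmp2 (score 40), 12974 bp from Col4a1, which encodes a basement membrane collagen chain (39), and 11554 bp from Osmr, the oncostatin M receptor gene (40). Peaks near transcription factor genes were found 11240 bp from Foxe1 (59), 25593 bp from Zfhx3 (44) and 123298 bp from Foxc1 (21).

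Among the genes of the lists, none had a repeat peak within 3 kb of its TSS. Of the 15 osteoblast genes 3 were the nearest gene of a repeat peak, as were 267 of 21900 protein-coding genes (1.22%). Whether the list differs from other genes was not tested. A (CCTCCAT)n repeat lay 10883 bp from the TSS of Sp7 (score 34, chr15:102286234-102286339), a (GT)n repeat 14278 bp from that of Alpl (47, chr4:137479419-137479597), and a (CCAGC)n repeat 126178 bp from that of Runx2 (30, chr17:44920799-44920972). Runx2 and Sp7 encode the transcription factors that direct osteoblast formation, and Alpl encodes alkaline phosphatase. Sp7, which is also in the list of 20 periosteal genes, was the only gene of that list with a repeat peak, and Plagl1, Klf4 and Irx5, named in the title of the series, had none.

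Of 25 genes that silence repeats, 23 carried H3K4me3 within 3 kb of the TSS, including Trim28, Setdb1, Dnmt1 and Uhrf1, while no peak bore the name of Morc2a or Cbx3 there. Peaks were counted by the gene name their annotation gives, so a peak named for a neighbouring gene is missed, for H3K4me3 and for PLAGL1. Among all 21900 protein-coding genes, 11229 carried the mark in that window. None of the 25 had a PLAGL1 peak in that window, where a count of 0 allows up to 3 counts, or 12%. Of 11229 protein-coding genes with H3K4me3 within 3 kb, 1153 had a PLAGL1 peak there (10.3%), which is under that limit. The nearest repeat peak was in an RLTR26D_MM LTR 18820 bp from the TSS of Cbx3, which encodes the heterochromatin protein HP1 gamma (score 47, chr6:51466979-51467126). The H3K4me3 peak nearest to this repeat peak, whichever gene it is named for, was 18651 bp away.

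H3K4me3 was rare at PLAGL1 peaks in repeats and was not found at any in RLTR17B_Mm. Of the repeat peaks 26 of 377 overlapped an H3K4me3 peak by at least 1 bp (6.90%, 4.75% to 9.91%), against 1660 of 3086 outside repeats (53.8%, 52.0% to 55.5%). Repeat peaks also lay farther from a TSS, and the peaks outside repeats weighted to their distances had 22.9%. RLTR17B_Mm had 0 of 97, which allows a share of up to 3.09% by the rule of 3 counts of the total (Wilson upper bound 3.81%), while the peaks outside repeats weighted to its distances had 20.2%. The median gap from an RLTR17B_Mm peak to the nearest H3K4me3 peak was 60493 bp, and for the other repeat peaks it was 21053 bp. Of the other LTRs 6 of 58 overlapped H3K4me3 (10.3%, 4.83% to 20.8%), of SINEs 9 of 70 (12.9%, 6.91% to 22.7%), of simple repeats 6 of 79 (7.59%) and of LINEs 2 of 27 (7.41%).

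**Figure D4:**
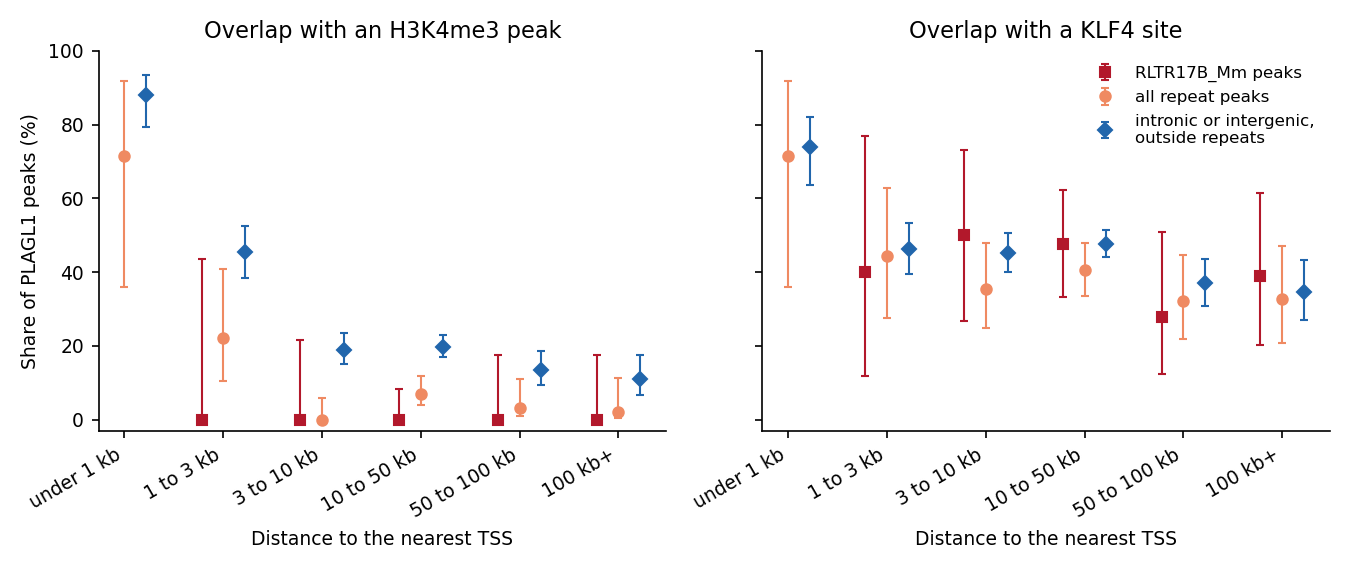
Share of PLAGL1 peaks (%) that overlap an H3K4me3 peak (left) or a KLF4 site (right), by distance to the nearest TSS, for RLTR17B_Mm peaks (squares; none lies under 1 kb), all repeat peaks (circles) and intronic or intergenic peaks outside repeats (diamonds), with 95% Wilson intervals. For H3K4me3 the squares are at 0 in each of their bins, while for KLF4 the intervals of the groups overlap in each bin.

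The 10 highest-scored repeat peaks with H3K4me3 were a mixed set. At Fhod1 (the G-rich tract with a score of 115), the H3K4me3 peak had a score of 900 in its own list, and at Csrnp1, a gene for a nuclear protein, an L2b LINE peak with a score of 73 (chr9:119810942-119811761, 738 bp from the TSS) met one of 653. An RSINE1 peak (72) 2584 bp from the TSS of Arpc1b, a subunit gene of the Arp2/3 complex, met one of 118. The major satellite GSAT_MM, the main tandem repeat around mouse centromeres, had a peak of 64 at chr2:98492959-98493066, 1195010 bp from the nearest TSS, over an H3K4me3 peak of 202. The KLF4 site there was strong too, at 8.49 mean log2 CPM in the authors' values, against a median of 5.08 for all KLF4 sites. The handling of reads that match several places is not given, and its part in these signals was not tested.

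The others described here were LTRs and SINEs. ORR1F near Tbcc (62), MTA_Mm 1558 bp from Mascrna (62) and IAPLTR1_Mm near Rnu1b6 (50) were the LTRs, and B3 2181 bp from Nemp1 (57) and MIR3 near Slc6a7 (53) the SINEs. Mascrna is a small RNA cut from the 3′ end of Malat1, Rnu1b6 is a U1 spliceosomal RNA gene, and IAPLTR1_Mm belongs to the intracisternal A-particles, an ERVK group that is still active in mice. The repeat peak closest to a TSS was a MIR3 SINE 178 bp from that of Islr (score 21, chr9:58065585-58065733), over an H3K4me3 peak of 371.

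The 7 RLTR17B_Mm copies with H3K4me3 were different copies from the 97 with PLAGL1. They lay near Misp3, Atp10d, 2310022B05Rik, Tnxb, Csrnp1, Gm26520 and Fam186a, with H3K4me3 scores of 31 to 69 and a median of 34, against a median of 138 for all 611 H3K4me3 repeat peaks. None overlapped a PLAGL1 peak, and the nearest was 7029 bp away, at the Csrnp1 copy. A count of 0 of 7 allows a share of up to 35.4% (Wilson upper bound). Of all 611 H3K4me3 repeat peaks 51 overlapped a PLAGL1 peak (8.35%), so the 0 is not read as a difference from them. A KLF4 site overlapped 6 of the 7 (85.7%, 48.7% to 97.4%) and 258 of all 611 H3K4me3 repeat peaks (42.2%). KLF4 was thus found at this element both with PLAGL1 and with H3K4me3.

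KLF4 was much more frequent than H3K4me3 at these peaks. A KLF4 consensus site overlapped 144 of the 377 repeat peaks (38.2%, 33.4% to 43.2%) and 2018 of the 3086 outside repeats (65.4%, 63.7% to 67.1%), or 45.9% of these when weighted by distance. The 144 peaks shared 140 KLF4 sites. For RLTR17B_Mm the count was 41 of 97 (42.3%, 32.9% to 52.2%), with 44.1% for the peaks outside repeats at its distances. The weighted value lies inside the interval of RLTR17B_Mm. At the 41 peaks the centres of the PLAGL1 peak and the KLF4 site were a median of 65.5 bp apart, and 31 of the PLAGL1 peaks lay wholly inside the KLF4 site.

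The overlap with KLF4 varied between elements. It was 5 of 6 peaks for RMER12C (83.3%, 43.6% to 97.0%), 4 of 6 for MIR3 and 7 of 14 for IMPB_01, a satellite whose peaks were spread over 10 chromosomes, but 0 of 11 for the SINE B4A, which allows a share of up to 27.3% by 3 counts of the total (Wilson upper bound 25.9%). The genes nearest to the 11 B4A peaks were Psap (score 61, 2516 bp from the TSS), Foxk1 (40), Wsb1 (30), Mir3474 (30), Agbl3 (30), Foxn4 (29), Lcn2 (27, 848 bp), Mt1 (22, 3143 bp), Jdp2 (21), Gm38576 (21) and Arhgef10l (21). Of these Psap encodes prosaposin, Lcn2 a lipocalin, Mt1 a metallothionein, and Foxk1, Foxn4 and Jdp2 transcription factors. By class the share was 60% for low complexity tracts (3 of 5), 50% for satellites (9 of 18), 43.0% for simple repeats, 42.9% for DNA transposons (6 of 14), 41.3% for LTRs, 29.6% for LINEs, 25.7% for SINEs (18 of 70, 16.9% to 37.0%) and 22.2% for the Retroposon class (2 of 9). KLF4 overlap was more frequent at higher scores. It was 31.1% of the repeat peaks with scores of 20 to 29, 32.8% at 30 to 39, 44.2% at 40 to 59 and 62.9% at 60 and over. The intronic and intergenic peaks outside repeats had 37.9%, 38.7%, 47.3% and 62.2% in the same bands.

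The comparison of Ctsk-iCre;Plagl1fl/fl cells with control cells asked whether KLF4 occupancy differs without Plagl1. The authors' deposited table gives 1 log2 fold change per KLF4 site over both groups, and which group is the numerator is not stated, so signs are given without a direction. It called 10 of 21130 sites at an adjusted p under 0.05 (0.0473%). At the 140 sites with a repeat peak 1 was called, a chrY site (chrY:90822636-90824290) under the IMPB_01 satellite peak near G530011O06Rik, with a log2 fold change of -0.83 (approximate SE 0.09) and an adjusted p of 1.6e-09 from edgeR in the authors' deposited table. No other site at a repeat peak had an adjusted p under 0.63 there. The sex of the animals was not considered here. At a chrY site, a difference in sex between the groups cannot be told apart from the genotype.

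At an unadjusted p under 0.05, 12 of the 140 sites differed in the authors' deposited table (8.57%; 6.46% of all sites). Of the 12, 6 were negative (3.05% of all sites were called with a negative sign) and 6 positive (3.40% of all sites). At an unadjusted p under 0.01 there were 5 (1.48% of all sites), and 3 of these were RLTR17B_Mm copies. The copy near Gm31728 (chr1:180100689-180100842) had a log2 fold change of 0.73 with an approximate SE of 0.27 in the authors' deposited table, and the one 324779 bp from Ajap1 (chr4:153242369-153242647) had 0.54 with 0.20. The copy 2891 bp from the TSS of Slc7a13, an amino acid transporter gene, had the opposite sign, at -0.85 with an approximate SE of 0.32 (chr4:19821566-19821670), in the authors' deposited table. The remaining site lay under a (TGAGTG)n repeat near Xcr1, a chemokine receptor gene, with -0.30 and an approximate SE of 0.11 there. The adjusted p-values of these 4 sites were 0.63 to 0.65 in the authors' deposited table, from edgeR.

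Most KLF4 sites at RLTR17B_Mm had positive values. Of the 41 sites 28 had a positive log2 fold change in the authors' deposited table (68.3%) and the median was 0.10 (range -0.85 to 0.73). All sites come from the same 3 Plagl1ko and 3 control libraries, so the 41 sites are not replicates of the comparison. The 100 sites at the other repeat peaks had a median of -0.04 with 45 positive, and all 21130 sites had a median of 0.00 with 50.3% positive, in the same deposited table. The intronic and intergenic peaks outside repeats had a median of -0.05 with 37.1% positive over 712 sites. The RLTR17B_Mm sites were weak KLF4 sites, with a median of 4.49 mean log2 CPM against 5.08 for all sites, and 17 of the 41 were in the weakest of 4 equal groups by mean signal. In that weakest group the median log2 fold change was 0.03 with 53.3% positive, and in the next one 0.00 with 50.1%, in the authors' deposited table. The part that signal plays in the positive values was not tested.

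**Figure D5:**
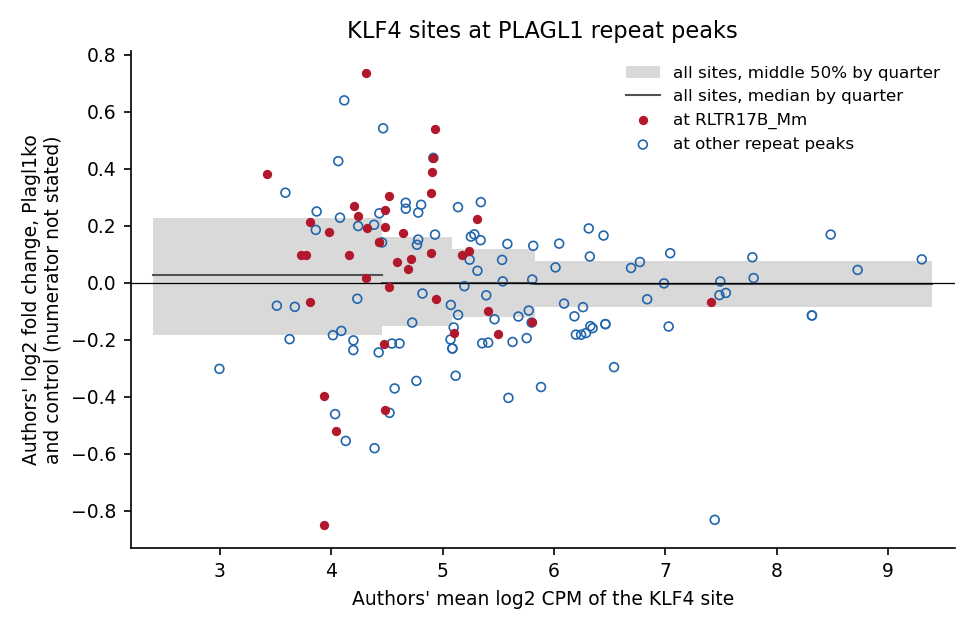
The authors' log2 fold change between Ctsk-iCre;Plagl1fl/fl (Plagl1ko) and control cells, numerator not stated, against the authors' mean log2 CPM of the KLF4 site, for the sites at RLTR17B_Mm peaks (filled) and at other repeat peaks (open); grey bands hold the middle 50% of all sites in 4 equal groups by mean signal, with their medians as lines. Of the 41 filled points 28 lie above 0, most of them within or near the bands, and the open point at -0.83 is the chrY satellite site.

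Of the genes of the osteoblast list with a repeat peak, the KLF4 sites at these peaks were not called. In the authors' deposited table the site near Sp7 had a log2 fold change of -0.40 (approximate SE 0.15, unadjusted p = 0.010 from edgeR) and the site near Runx2 had -0.11 (approximate SE 0.19), while the Alpl peak had no KLF4 site. The site at the RLTR26D_MM element near Cbx3 had 0.54 (approximate SE 0.24), and the site at the AmnSINE2 peak near Irf2bp2 had -0.15 (approximate SE 0.12), per the authors' deposited table.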

How the data were processed

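Per the submitters' processing notes the build was mm39. They list, without saying which step each served, MACS3 3.0.2, HOMER 4.11.1, DiffBind 3.16.0, edgeR 4.2.0, Bowtie2 2.5.4, SAMtools 1.21, GATK 4.5.5.0, Trim Galore 0.6.10 and deepTools 3.5.5. The handling of duplicates and of reads that match several places, and the scaling of libraries, bear on peaks in repeats and are not given in the sources used here. Each PLAGL1 and H3K4me3 peak has a whole-number score in the authors' deposited files, and their annotation of distance to the TSS, gene and repeat. The authors' deposited table of KLF4 gives per site the log2 fold change, its p-value and adjusted p-value, the mean log2 CPM and the F score, with no values per library, so no counts were refitted. The only new adjusted p-values are those of the check without the sex chromosomes, where the deposited p-values were adjusted again by the Benjamini-Hochberg method.

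From these, overlaps (at least 1 bp), Wilson 95% intervals, order-statistic intervals of medians and shares weighted over 6 bins of distance (edges 1, 3, 10, 50 and 100 kb) were computed in Python 3.11.15 (numpy 2.4.6, scipy 1.17.1, pandas 2.3.3; figures with matplotlib 3.10.9) and checked on simulated data. The approximate SE was obtained from the size of the log2 fold change over the root of F. The members, the lists of genes and the groupings were chosen with earlier results of these data known. Peaks were named by rule: elements with 5 or more peaks, the 10 highest scores, the highest score of each class, KLF4 sites at an unadjusted p under 0.01, the 10 highest scores with H3K4me3, and repeat peaks within 3 kb of a listed gene. Others are said to have been picked after their values were seen, or are the nearest peaks of listed genes. The protein-coding genes set beside the lists are those of RefSeq for GRCm38.p6, used for names only. No genome of the build mm39 was used here, so no sequence of a peak is shown. No label says that the 3 KLF4 libraries of a group were separate animals or cultures, so the authors' p-values reflect the spread of these libraries alone, which may be technical. Of the 10 highest scores with H3K4me3, 1 peak is not reported here.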

Additional observations from a re-analysis of the deposited data

How the results depend on the processing

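No paired analysis was possible because the KLF4 table holds no values per library, and for the same reason no replicate could be left out. The share of PLAGL1 peaks in repeats, 10.9%, was 9.54% among peaks with a score of 30 or more, 8.46% without simple repeats and low complexity tracts, and 17.4% of intronic or intergenic peaks. Without these classes LTRs were 52.9% of the PLAGL1 repeat peaks (46.3% for the weighted H3K4me3 peaks) and RLTR17B_Mm was 33.1%. The weighted H3K4me3 overlap of peaks outside repeats was 20.7% when at least 50% of the peak had to overlap, 25.5% with 3 bins of distance and 20.6% when only intronic or intergenic peaks with no CpG name were used, an alternative chosen after seeing the data. The weighted KLF4 overlap of peaks outside repeats was 48.3% at scores of 30 or more, 43.3% with an overlap of at least 50% and 48.3% with 3 bins. At scores of 30 or more the median score was 40 for repeat peaks and 44 for weighted peaks outside repeats. Without the sex chromosomes, the deposited p-values of edgeR were adjusted anew over the remaining sites. At an adjusted p under 0.05, 0 of the KLF4 sites at repeat peaks were then called. Of these sites 11 had an unadjusted p under 0.05. The other recomputed values stayed within the interval of the value reported. Without replicates for PLAGL1 and H3K4me3, counting error is the only error measured for them.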
